A study of Mus musculus with 5 samples.

Results

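The microRNAs miR-132 and miR-212, which come from neighbouring genes, were followed in mouse helper T cells through activation. Their probes, 1org-132 and 2org-212, are 2 of the 171 microRNA probes on arrays that also carry 7 probes for other small RNAs. The pair was chosen by its log ratios on these same arrays, high at day 3 and not at day 10, and for its known place among the targets of the transcription factor CREB. The values of the pair are therefore a description, and none of them was tested. The platform annotation names miR-212 for 2org-212 and no gene for 1org-132, which is read as miR-132 from its number.

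Each of the 5 arrays set total RNA of activated mouse CD4+25- T cells against RNA of CD4+25- T cells that had not been activated, called naive in the title of the series. Cells that carry CD4 and lack CD25 are conventional helper T cells, without the CD25-positive cells among which regulatory T cells are found. Activation had lasted overnight on 1 array, 3 days on 2 arrays and 10 days on 2 arrays. The activated RNA was labelled with Cy5 on the overnight array and on 1 array of each later time, and with Cy3 on the other array of each later time. The stimulus, the culture, and the strain and age of the mice are not given in these sources, nor is it stated whether a dye pair was made from separate extracts. Any spread between them may therefore be technical. In RNA from whole cell samples, fewer cells of a type and less RNA per cell cannot be told apart.

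Values are log ratios of the channels, read here as log2 and taken to be Cy5 over Cy3, and turned to activated over naive. The base and the numerator are not stated, so every fold rests on the first reading and every direction on the second. Cy5 over Cy3, channel 2 over channel 1, is assumed as the usual order of such tables. The array titles do not settle it, since they put activated before normal on the swapped arrays too. If Cy3 was the numerator, every value changes sign and every rank is counted from the other end. The median over microRNA probes lay between -1.75 overnight and 1.42 on 1 day 3 array, so each array has an offset of its own. Values are therefore also given after centring, in which the median of each array is taken off, and as ranks within an array, which no offset can change. Ratios carry no level, so presence of a microRNA above background could not be checked, and the number of arrays limits the precision.

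MicroRNAs are short RNAs that are cut from a hairpin and guide repression of messenger RNAs, mainly through the seed near their 5′ end. The genes of miR-132 and miR-212 are transcribed together, and the pair is best known from neurons, where CREB, a factor activated by calcium and cyclic AMP signals, induces it with activity. Antigen receptor signals also activate CREB in T cells.

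The mature 3p arms are shown because they carry the seed, in capitals (bases 2 to 8), and show how alike the targets of the 2 probes are. The older names without an arm are read as these 3p arms. Sequences are from RefSeq, build GRCm38.p6, plus strand of chromosome 11, written 5′ to 3′.
miR-132-3p (chr11:75173723-75173744): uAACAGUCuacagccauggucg
miR-212-3p (chr11:75173443-75173464): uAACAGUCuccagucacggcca
Both are 22 bases long and carry the same seed, AACAGUC. The first 9 bases are the same, and 17 of the 22 positions are the same. Counted from 1 at the 5′ end, and with the base of miR-132 first, the differences are A10C, C14U, U17C, U20C and G22A. Of 1738 mature mouse microRNAs in the RefSeq table, these were the 2 with this seed, and among the microRNA probes that matched a mature sequence by name, these 2 alone carried it. The 5p arms have different seeds. The sequences of the array probes were not analysed here, and how far either probe also binds the other microRNA was not tested.

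The hairpins show how close the genes lie, with the 3p arm in capitals.
Mir212 (chr11:75173388-75173478): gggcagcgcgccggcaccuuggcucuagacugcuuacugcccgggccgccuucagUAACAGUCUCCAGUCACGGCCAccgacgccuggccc
Mir132 (chr11:75173682-75173747): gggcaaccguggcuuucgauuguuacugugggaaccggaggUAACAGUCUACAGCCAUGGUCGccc
The hairpin of Mir212 is 91 bases long and that of Mir132 is 66. They are separated by 203 bases, and together they span 360 bases. In RefSeq order the 2 genes follow each other directly and lie between Hic1, a transcriptional repressor, and Ovca2.

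After 3 days of activation both microRNAs stood far above naive cells. The ratio of miR-132 was 3.40 on the array with activated RNA in Cy5 and 4.09 on the array with it in Cy3. That of miR-212 was 3.58 and 4.32 on the same arrays. On each of these arrays both probes were high, and miR-212 was slightly above miR-132. The mean was 3.74 ± 0.35 for 1org-132, a 13.4-fold excess over naive cells, and 3.95 ± 0.37 for 2org-212, a 15.5-fold excess. Here and below, ± after a mean is the distance of either array from it (n = 2 arrays of opposite dye). It holds the probe's dye effect and the offset of the arrays, and it is not a standard error.

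Among all 171 microRNA probes, 2org-212 ranked 5 and 1org-132 ranked 7 from the highest at day 3, or from the lowest if Cy3 was the numerator. Directly above 2org-212 stood miR-155 (1org-155) at 4.88, and 1org-183 at 3.87 lay between the pair. Directly below 1org-132 stood 1org-298 at 3.46. The differences between 1org-298, 1org-132, 1org-183 and 2org-212, next to each other in this order, were within the distances between the arrays of a pair. A probe counted as changed, higher or lower, if its mean was 1 or more from 0 (2-fold) and its arrays had the same sign. Both members were higher by this rule, as were 38.0% of all probes, while 12.9% were lower. Nothing is read from the count of members, since the rule that chose them used these arrays. After centring, the means were 2.93 ± 0.26 for 1org-132 and 3.14 ± 0.24 for 2org-212, with the same ranks, or 7.64-fold and 8.83-fold.

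At day 10 neither microRNA stood out. The ratio of 1org-132 was -0.72 with activated RNA in Cy5 and -0.40 with it in Cy3, and its mean was -0.56 ± 0.16. For 2org-212 the ratios were -0.46 and -0.33, with a mean of -0.40 ± 0.067. All 4 values were just below 0 and lay beside the array medians of -0.51 and -0.38. By the size rule 0 of the 2 members was called, against 9.94% of all probes higher and 17.0% lower. Ranks from the highest were 85 for 1org-132 and 69 for 2org-212, in the middle of the 171. After centring the means were -0.11 ± 0.099 and 0.052 ± 0.0010, so the sign of 2org-212 turned with the array offset and both lay close to the median probe.

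**Figure D1:**
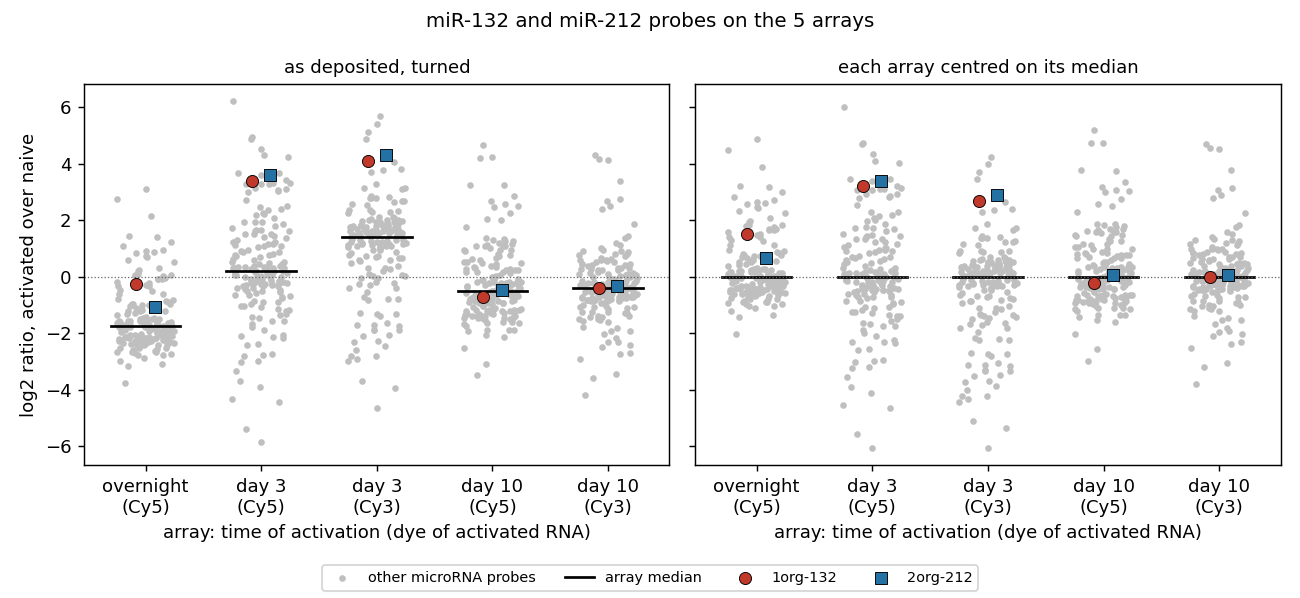
Log2 ratios of activated over naive cells on each of the 5 arrays, for 1org-132 (circles), 2org-212 (squares) and the other microRNA probes (grey points), with the array median as a bar, as deposited and turned (left) and after centring each array (right). The pair lies between 3.40 and 4.32 on the day 3 arrays and between -0.72 and -0.33 on the day 10 arrays, beside the array median.

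Between day 3 and day 10 the ratio of each member fell by more than 4 log2 units. The difference of the means, day 10 minus day 3, was -4.30 for 1org-132 and -4.35 for 2org-212, or 19.8-fold and 20.4-fold. The lowest day 3 value exceeded the highest day 10 value by 3.79 for 1org-132 and by 3.91 for 2org-212, so the pairs of arrays did not overlap for either. Between arrays with activated RNA in Cy5 the differences were -4.12 and -4.05, and between arrays with it in Cy3 they were -4.49 and -4.65. The fall was thus of like size in each dye orientation. By the size rule with no overlap, both members were lower at day 10 than at day 3, as were 41.5% of all probes, while 12.9% were higher. The median over all probes was itself -1.22. In the order of all 171 differences 2org-212 was 4 and 1org-132 was 5 from the lowest, and after centring the differences were -3.05 and -3.09, or 8.26-fold and 8.52-fold.

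Many probes that were high at day 3 were lower at day 10, and the pair is set beside them here without a test. Of the 63 other probes higher at day 3, 44 were lower at day 10 than at day 3, and their median ratio went from 1.62 to -0.39. After centring, 24 other probes were higher at day 3, with a median of 2.14 then and of 1.33 at day 10. Of these 24, 11 were lower at day 10 than at day 3, and 3 lay below the array median at day 10, where 1org-132 lay too. Most of the 24 thus kept a ratio above the array median at day 10. The centred ratio of 2org-212 was above it too, by 0.052, and that of 1org-132 was at -0.11. Both lay below the median of 1.33 of the 24, but the pair was chosen as not high at day 10.

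**Figure D2:**
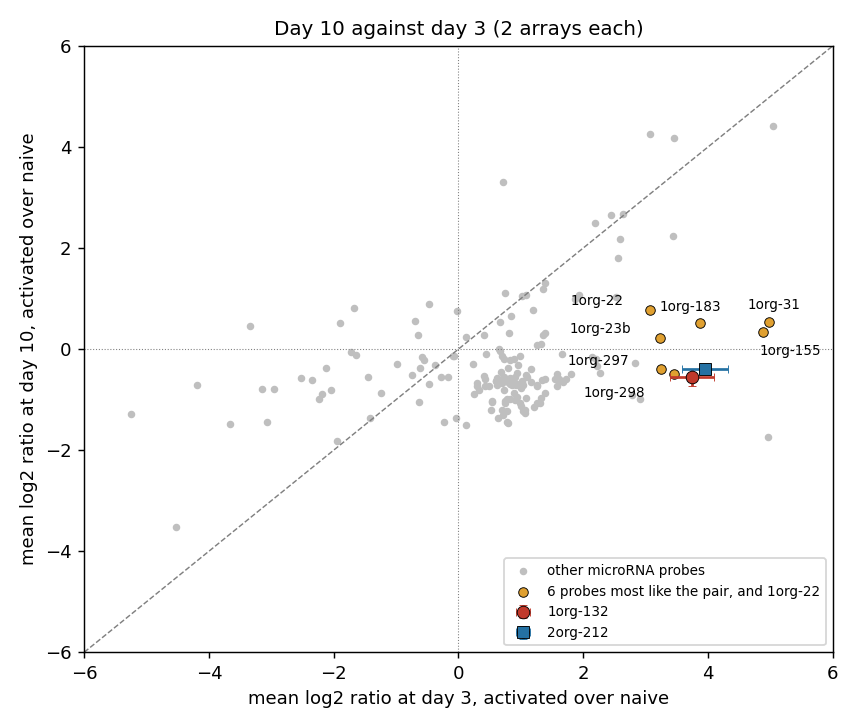
Mean log2 ratio at day 10 against that at day 3 for all microRNA probes, with 1org-132, 2org-212 (bars: the distance of either array from the mean, n = 2), the 6 probes most like them and 1org-22 marked; the dashed line marks equal values. The pair lies at 3.74 and 3.95 on the day 3 axis and at -0.56 and -0.40 on the day 10 axis.

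The overnight array, which has no dye swap, was the time at which the members differed from each other. The ratio of 1org-132 was -0.24 and that of 2org-212 was -1.08, on an array whose median was -1.75. Both were thus below naive cells as deposited and above the array median, by 1.51 and by 0.67. Of the 2 members, 2org-212 was past 2-fold on the lower side, as were 73.1% of all probes, and 4.09% were on the higher side. Ranks from the highest were 30 for 1org-132 and 50 for 2org-212. The sign of either overnight ratio depends on the array offset, and centring turned both to above 0.

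The dye effect of each probe was estimated from the day 3 and day 10 pairs as the half-sum of the deposited ratios. A dye effect keeps its sign when dyes are swapped, but the half-sum also holds the difference in offset between the arrays. Averaged over both times it was -0.26 for 1org-132 and -0.22 for 2org-212. Over all probes its median was -0.22 and its median size 0.31. After centring, the estimates were 0.26 and 0.24 at day 3 and -0.099 and -0.001 at day 10. The sign at day 3 thus turned with the array offsets. Taking the uncentred mean off left the overnight ratios at 0.017 and -0.86, which therefore hold these offsets too. Between arrays with activated RNA in Cy5, the ratio rose from overnight to day 3 by 3.64 for 1org-132 and by 4.66 for 2org-212, while the median probe rose by 1.99. These rises ranked 25 and 11 among the 171 probes. After centring they were 1.69 and 2.71. A single overnight array gives no spread, so the values are without a test.

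Differences between the 2 probes on an array are free of its offset. The ratio of 2org-212 minus that of 1org-132 was 0.19 and 0.23 on the day 3 arrays and 0.26 and 0.066 on the day 10 arrays. Overnight it was -0.84. On the 4 arrays of days 3 and 10 the pair was thus at most 0.26 apart, with miR-212 above on each, and it was farther apart on the overnight array, with miR-132 above. The root mean square difference of the 2 probes over the 5 arrays was 0.41, against a median of 1.74 over all 14535 pairs of microRNA probes. In 295 pairs, or 2.03%, the probes were closer. Since both members were chosen for a like course, this is a description.

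The pair was also set beside other pairs of probes whose microRNAs share a seed. Since the pair was chosen from these ratios for a like course, its place among them was fixed in part by that choice and is a description. There were 99 other pairs of probes with a seed in common in any arm, many of which share probes. Their median difference was 1.27, from 0.34 to 3.80. Of these 99, 2 were closer than miR-132 and miR-212: 1org-103 with 2org-107 at 0.34, and 2org-221 with 2org-222 at 0.35. MiR-221 and miR-222 are, like miR-132 and miR-212, neighbouring genes with a common seed, and miR-103 and miR-107 are paralogs in different loci.

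**Figure D3:**
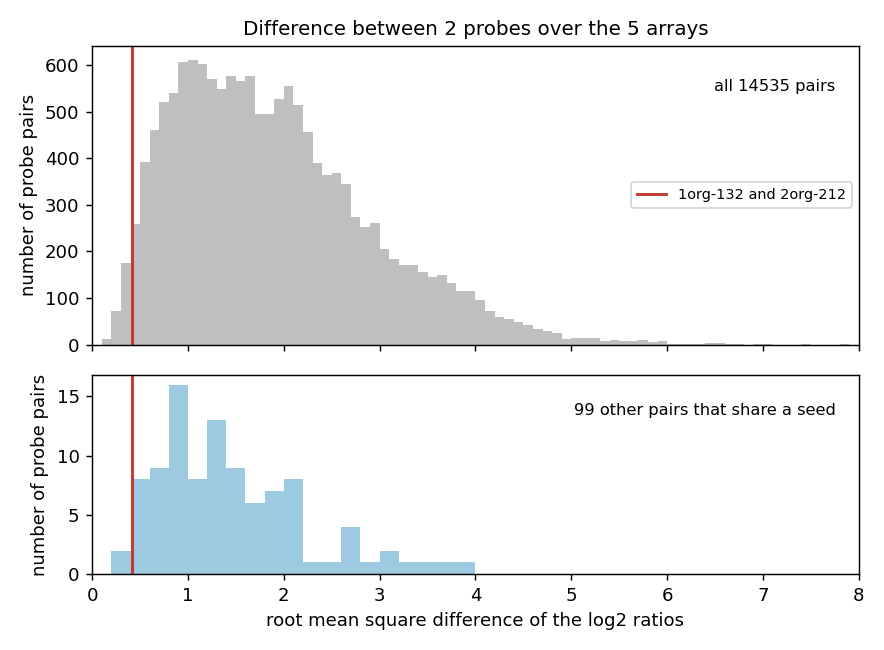
Number of probe pairs by the root mean square difference of their log2 ratios over the 5 arrays. All 14535 pairs are at the top (steps of 0.1). The 99 other pairs that share a seed, among probes matched to a mature sequence by name, are at the bottom (steps of 0.2). The line marks 1org-132 and 2org-212 at 0.41, near the left end of both.

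The probe whose course was most like that of the pair was 1org-298, at a root mean square difference of 0.29 from the pair's mean over the 5 arrays. Overnight its ratio was -0.97, on the day 3 arrays it was 3.11 and 3.81, and on the day 10 arrays -0.51 and -0.47. It lay closer to each member than they lay to each other. The annotation gives several genes for it, so it is named by its ID. Next were 1org-23b at 0.88, 1org-183 at 0.91, miR-155 (1org-155) at 0.94, miR-31 (1org-31) at 1.00 and 1org-297 at 1.02. By the size rule all 6 were higher at day 3 (38.0% of all probes) and lower at day 10 than at day 3 (41.5%). None was called at day 10 (9.94% of all probes higher, 17.0% lower). Since the 6 were picked on these arrays for likeness to the pair, their calls follow from that choice and are a description.

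Of these 6, 1org-298 lay between the members overnight and, after centring, between them at day 10, and 1org-297 was at 0.062 at day 10 after centring, so a day 10 ratio near the array median was not particular to the pair. MiR-155, which is induced by antigen receptor signals, was at 4.88 ± 0.0095 at day 3 and at 0.35 ± 0.12 at day 10. After centring it stood at 0.80 at day 10, miR-31 at 0.98 and 1org-183 at 0.96, where the pair was at -0.11 and 0.052. Overnight after centring 1org-297 was at 2.98 and 1org-23b at 2.27, above both members, and 1org-183 was at -0.37, below both. Over the 3 time values instead of the 5 arrays, 2org-224 and 1org-22 took the places of 1org-183 and 1org-297 among the first 6. The arrays of 2org-224 differed widely, at 6.22 and -0.395 at day 3 and at 0.92 and -2.91 at day 10. Its likeness thus rests on the averages alone. Over the 4 arrays of days 3 and 10, 1org-22 took the place of 1org-31.

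**Figure D4:**
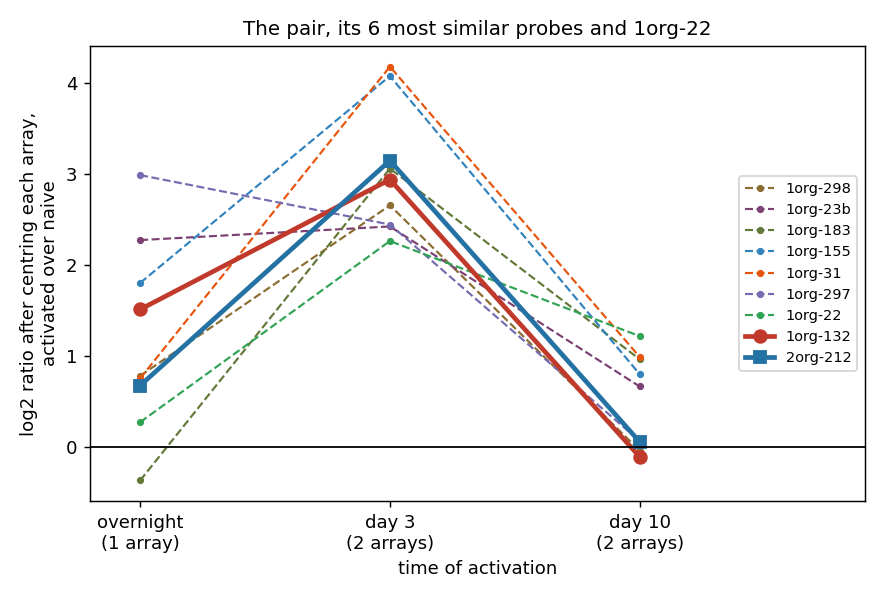
Log2 ratios of activated over naive cells after centring each array on its median, by time of activation, for 1org-132, 2org-212, the 6 probes most like them and 1org-22. The pair goes from 1.51 and 0.67 overnight to 2.93 and 3.14 at day 3 and to -0.11 and 0.052 at day 10, where 1org-22 is at 1.21.

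MicroRNAs linked to CREB or to the activity of neurons were listed to set beside the pair, which was left out of the list. The list holds miR-34b, known as a CREB target, the neural miR-9, miR-9* and miR-124, and miR-134, miR-184 and miR-219, known from active or rhythmic neurons. It matched 7 probes. At day 3, 1 of the 7 was higher and none was lower, beside 38.0% and 12.9% of all probes. The list median was 0.91, beside 0.83 over all probes. The 1 higher was miR-34b (1org-34b), at 0.45 and 1.70 on the day 3 arrays, with a mean of 1.07 ± 0.63. After centring none was called, beside 26 higher and 34 lower of all 171 probes, and miR-34b was at 0.26. The median of these probes at day 3 was close to that of all probes, and each lay below both members. The day 3 arrays had opposite signs for 1org-9* (-0.76 and 2.01), 1org-134 (-0.10 and 2.00), 1org-184 (-0.51 and 1.9) and 2org-219 (-0.65 and 1.24). The size rule could not call these probes, and their day 3 means are uncertain.

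At day 10, 0 of the 7 were higher and 2 lower, beside 9.94% and 17.0% of all probes. The 2 were miR-34b at -1.27 ± 0.11 and 1org-124a at -1.01 ± 0.61. The list median of -0.59 was beside -0.56 over all probes. These same 2 of the 7 were lower at day 10 than at day 3, beside 41.5% of all probes. After centring 0 of the 7 were called at day 10, beside 25 higher and 7 lower of all 171 probes. Between the times 1 of the 7, miR-34b, was then lower, beside 23 of all 171. Overnight all 7 were lower, as were 73.1% of all probes, with a median of -2.31. After centring 1 was lower, beside 7 of all 171 probes. The lowest overnight was 2org-219 at -2.97 and the highest 1org-124a at -1.22, where 1org-132 was at -0.24 and 2org-212 at -1.08.

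MicroRNAs that antigen receptor or inflammatory signals are known to induce gave another list, of 14 probes without the pair. At day 3, 11 of the 14 were higher, beside 38.0% of all probes, with a median of 2.51 (0.83 over all probes), and 0 were lower. After centring 10 of the 14 were higher, as were 26 of all 171 probes. The 3 not called were 1org-146 at 0.70, miR-182 (1org-182) at 0.30 and 2org-182* at 0.80. The list was chosen with earlier results of these data known, so its direction is no independent evidence. Of the 14, miR-31 (4.99), 2org-210 (5.03), 2org-214 (4.96) and miR-155 (4.88) lay above both members at day 3.

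Within this list the probes that were higher at day 3 differed in what followed. At day 10, 6 of the 14 were higher, beside 9.94% of all probes, and 3 lower, beside 17.0%, with a median of 0.77 (-0.56 over all probes). Between the times 6 were lower at day 10, beside 41.5% of all probes, and none was higher. After centring 7 were higher and 2 lower at day 10, beside 25 and 7 of all 171 probes. Against day 3, 5 were then lower and 4 higher, beside 23 and 48 of all 171. The 6 higher at day 10 were also higher at day 3. They were 2org-210, a microRNA induced by hypoxia, at 4.41 ± 0.25, 2org-222 at 2.68 ± 0.0075, miR-21 (1org-21) at 2.66 ± 0.095, 2org-221 at 2.50, miR-23a (1org-23a) at 2.19 and miR-27a (1org-27a) at 1.19. Probe 1org-24, higher at day 3 at 1.87, was at 0.99 at day 10, just under 2-fold. The 3 lower at day 10 were 2org-214, 2org-182* at -1.46 and 1org-146 at -1.21. Those that were higher at day 3 and lower at day 10 than at day 3 were miR-155, miR-31, 1org-183 and 2org-214, which was at -1.75 ± 0.58 at day 10. The members, with day 10 ratios of -0.56 and -0.40, were chosen as high at day 3 and not at day 10. Their place on the side of these 4 was set by that choice.

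Other microRNA genes of chromosome 11 were followed because the pair's own genes lie side by side. The 4 nearest on each side that have a probe, by order among microRNA genes in the RefSeq table, were matched to probes by number. The genes Mir103-1 and Mir218-2 are copies of microRNAs that also come from elsewhere. Before Mir212 the 4 were 5, 28, 29 and 30 microRNA genes away, and after Mir132 they were 1, 5, 9 and 13 away. Most of them are thus not close neighbours of the pair. At day 3, 6 of the 8 probes were higher, beside 38.0% of all probes, around a median of 1.57 (0.83 over all probes), and 0 were lower. At day 10, 1 was higher and 1 lower, beside 9.94% and 17.0% of all probes, and 6 were lower at day 10 than at day 3, beside 41.5%. After centring 3 were higher at day 3, beside 26 of all 171 probes. At day 10, 2 were then higher, beside 25, and 0 lower, beside 7. At day 10, 3 were then lower and 1 higher than at day 3, beside 23 and 48 of all 171.

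MiR-22, whose gene Mir22 is the next microRNA gene after Mir132, was the highest of the 8 at day 3. Its probe 1org-22 was at 2.36 and 3.78 on the day 3 arrays, with a mean of 3.07 ± 0.71. At day 10 it was at 0.74 and 0.80, with a mean of 0.77 ± 0.030, above all 4 day 10 values of the pair. Its difference between day 10 and day 3 was -2.30, against -4.30 and -4.35 for the pair, and -1.04 after centring, against -3.05 and -3.09. Overnight it was at -1.48, below both members. The other gene after Mir132 with a day 3 mean over 2 and a lower ratio at day 10 was Mir193a, whose probe 1org-193 was at 2.20 ± 0.60 and -0.19 ± 0.42. MiR-21, a microRNA of the same chromosome common in activated and growing cells, was instead at 2.45 ± 0.37 and 2.66 ± 0.095. Before Mir212, miR-195 (1org-195) was at 0.69 ± 0.34 at day 3.

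Markers of other cells, and of lymphocytes themselves, were followed beside the day 3 values of the pair. Of 6 neural probes 2 were higher at day 3, 1org-129 at 2.15 ± 0.52 and 1org-137 at 1.31 ± 0.37, and none was lower, beside 38.0% and 12.9% of all probes. Their median of 0.92 was beside 0.83 over all probes. After centring 1org-129 was higher, at 1.34, as were 26 of all 171 probes. At day 10, 3 of the 6 were lower, beside 17.0% of all probes, with a median of -0.83. These were 1org-128 at -1.37, 1org-137 at -1.06 and 1org-124a at -1.01. After centring 0 of the 6 were called at day 10, beside 25 higher and 7 lower of all 171 probes. The centred median of the 6 was -0.38. The myeloid probe 2org-223 was at -0.24 ± 1.12 at day 3 while miR-144 (1org-144), known from red cell precursors, was at 1.03 ± 0.50. At day 10, 2org-223 was lower, at -1.44. After centring 2org-223 was at -1.05 at day 3, where it counted as lower, and at -0.997 at day 10, where it did not. Of 7 probes for lymphocyte microRNAs, of the miR-142, miR-150 and miR-181 groups, 6 were lower at day 3, beside 12.9% of all probes, with a median of -2.05, and 4 at day 10, beside 17.0%, with a median of -1.28. At day 3 they were 1org-150 at -5.24, 1org-181 at -4.53, 1org-142-as at -2.19, 2org-142* at -2.05, 2org-181b at -1.94 and 1org-142-s at -1.43, and of these 1org-150, 1org-181, 2org-181b and 1org-142-s were the 4 lower at day 10. After centring all 7 lymphocyte probes were lower at day 3, beside 34 of all 171 probes, and 2 at day 10, beside 7. T cells are lymphocytes, so these last probes do not mark other cells. The part of neural cells, myeloid cells and red cell precursors in the ratios of the pair was not tested.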

How the data were processed

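The deposited table holds log ratios for 171 microRNA probes and 7 other probes on 5 arrays, here read as log2, from total RNA of mouse T cells. What the authors did before they deposited these log2 values, and the scanner, is not given in the sources used here. No column was left unmapped. Groups and dyes came from the labels. By these labels the ratios of the 2 arrays with activated RNA in Cy3 were multiplied by -1. Before this, deposited ratios of a dye pair correlated at r = -0.66 (day 3) and r = -0.43 (day 10) across 171 probes, which are not independent replicates.

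Arrays of a pair were averaged. Calls used the size rule (at least 1 from 0 with the same sign on both arrays; between times, means at least 1 apart with no overlap; overnight, the single value). The alternative was limma 3.58.1 in R 4.3.3 over 5 arrays with terms for time and dye (Benjamini-Hochberg threshold 0.05, tested on simulated data), used for counts over all probes; its p-values measure spread between arrays alone. Likeness was the root mean square difference over arrays. Other computations used Python 3.11.15, numpy 2.4.6 and pandas 2.3.3. Platform annotation gave 61 microRNA probes 1 gene, 1 several and 109 none, and 50 matched a current mouse symbol by gene ID; lists were read from probe numbers.

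Named were the members, the 6 probes most like them, list and marker probes called at day 3 or day 10 (others by counts or as examples), neighbouring genes with the largest values (others by counts) and probes adjacent in day 3 rank. The members, lists and rules were chosen with earlier results of these data known.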

Additional observations from a re-analysis of the deposited data

Results flagged for a closer look

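Opposite signs at day 3 and day 10, on both arrays of each time, were looked for among the members and the other named probes; the single overnight array was not used. The difference was not tested. It was found for 1org-132 (day 10 minus day 3, -4.30) and 2org-212 (-4.35), each above 0 at day 3 and below 0 at day 10. The same was found for 1org-298 (-3.95), 1org-297 (-3.64), 1org-146 (-1.91), 2org-218 (-2.29), miR-34b (1org-34b, -2.34), 1org-124a (-1.92), 2org-214 (-6.71) and 1org-137 (-2.37). Over all 171 microRNA probes, 42 (24.6%) went from above 0 to below 0 in this way and 7 (4.09%) the other way. After centring, 4 of the 10 named probes still had opposite signs: 1org-132, 1org-34b, 2org-214 and 1org-137. No count over all 171 probes was made after centring, so these 4 have no share to be set beside. For 1org-132 this rests on a value almost on the array median, since its centred day 10 ratios were -0.21 and -0.013. Probe 1org-298 left the count because its day 10 ratio with activated RNA in Cy5, -0.513, was the array median itself. The 2 probes are thus not set apart by this count.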

How the results depend on the processing

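The members' ratios move with the array offset, and direction at day 3 and between the times did not change under any alternative run. With arrays centred on their medians, 1org-132 was at 1.51 overnight, 2.93 at day 3 and -0.11 at day 10, and 2org-212 at 0.67, 3.14 and 0.052; day 10 minus day 3 was -3.05 and -3.09. With centring and a common spread, the values were 1.93, 2.44 and -0.11 (difference -2.55) for 1org-132 and 0.86, 2.62 and 0.062 (difference -2.56) for 2org-212. With quantile normalization, 1org-132 was at 1.13 and 2.56 (difference -2.91) and 2org-212 at 0.46, 2.81 and -0.14 (difference -2.95). Centred on the 7 transfer RNA and small nuclear RNA probes, which themselves moved, 1org-132 was at 0.96, 5.40 and 0.049 (difference -5.35) and 2org-212 at 0.13, 5.61 and 0.21 (difference -5.40). The overnight ratio of 2org-212, -1.08 as deposited, was thus above 0 under all 4; the array offset of -1.75 is larger than the ratio. Leaving out 1 array of a time in turn gave 3.40 to 4.09 for 1org-132 and 3.58 to 4.32 for 2org-212 at day 3, -0.72 to -0.40 and -0.46 to -0.33 at day 10, and -4.65 to -3.96 and -4.72 to -3.98 for the difference. The replicate block by dye orientation gave -4.12 and -4.49 for 1org-132 and -4.05 and -4.65 for 2org-212.

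Counts over all probes moved more. Overnight, 7 higher and 125 lower became 37 and 7 after centring and 42 and 16 with a common spread, and 3 were higher at a threshold of 1.5 in place of 1. At day 3, 65 higher became 37 at 1.5, 26 after centring and 24 with a common spread, and 22 lower became 34 after centring. At day 10, 17 higher became 10 at 1.5 and 29 with a common spread, and 29 lower became 3, 7 after centring and 14. Between day 10 and day 3, 22 higher became 48 and 51 and 71 lower became 23 and 19 in these 2 settings. Without 1 array, from single values, 57 to 110 were higher and 24 to 33 lower at day 3 (110 without the array with activated RNA in Cy5). At day 10, 14 to 27 were higher and 37 to 52 lower (27 and 52 without the array with it in Cy3). Between the times 19 to 28 were higher and 66 to 102 lower. Limma over 5 arrays called 67 higher and 22 lower at day 3, 12 and 20 at day 10 and 15 and 75 between the times. Of the list medians and the likeness order under their alternatives, 17 stayed (medians within 0.5) and 21 moved, most with centring. With annotated probes alone, 5 of 6 probes of the receptor and inflammatory list were higher at day 3, beside 38.0% of all probes, around 2.51.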
